A study of Mus musculus with 7 samples.

Results

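Collagens are the trimeric matrix proteins of animal tissues, and each of their chains is encoded by a gene of its own. The collagen chain genes described here are the table rows named Col, a number, a and a number that were above 0 in at least 1 library, which held for 43 of the 44 rows with such a name and of 30590 rows in all. They were grouped into 9 fibrillar chains (types I, II, III, V and XI), 8 basement membrane chains (types IV, XV and XVIII) and 26 other chains. The RNA came from a mouse embryonic stem cell line named Bry-GFP, a name in use for reporter lines that carry GFP at the Brachyury gene, and all 7 libraries share that line. Day 0 (2 libraries) was cultured on embryonic mouse fibroblast feeders in medium with 15% serum and LIF at 1000 U/mL. Day 2 (2 libraries) followed 48 h of serum-free suspension culture, off the feeders, at 75000 cells per mL, in which embryoid bodies form. Day 4 (2 libraries) followed a further 48 h in 150 ng/mL Noggin, 25 ng/mL Wnt3a and 9 ng/mL Activin A, given to induce primitive streak. Day 6 (1 library) followed 48 h with basic FGF at 10 ng/mL and has no replicate. The sources used here do not say whether feeders were removed before the day 0 RNA was taken.

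Fibrillar collagens assemble into the rope-like fibres of skin, bone, tendon and cartilage, and fibroblasts are their classical source. Type IV collagen forms the sheet-like network of basement membranes under epithelia, already in the early embryo, while types XV and XVIII link that sheet to the tissue around it. The remaining classes bind to fibres, span the cell membrane, form beaded filaments or build networks of their own.

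Levels are given for each library on a log2 scale, as log2 of 1 plus the scaled reads, and changes are log2 differences between day means with their SE. Gene positions are on mouse build GRCm38. The pluripotency gene Pou5f1 was at 11.34 and 11.40 (day 0) and at 7.02 (day 6), and the neural gene Sox1 was at 2.95 and 2.64 (day 0) and at 9.02 (day 6). Total reads per library cannot be read from the table, but its low values lie in steps, and 3 reads gave a level between 1.45 and 2.30. Libraries held 16611 to 18211 genes above 0. A listed 0 may be a failed estimate: Gapdh, a glycolysis gene of every cell, had levels of 6.19, 7.13, 1.85, 3.44, 3.51, 7.08 and 0, so such values are called listed at 0. The labels call the replicates biological without naming separate cultures, and p-values measure only the spread between these samples.

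Most collagen chains were highest on day 0. Of 43 chains 26 had their highest mean on day 0, 4 had it on day 2, 3 had it on day 4 and 10 had it on day 6. In 24 chains (55.8%) both day 0 libraries lay above all others, against 13.8% of all 21813 genes tested. In 14 chains (32.6%) the day 4 and 6 libraries all lay below those of days 0 and 2, against 9.59% of all genes, and in 6 chains (14%) they all lay above, against 10.3%, which is a similar share. These 6 were Col4a6, Col9a3, Col22a1, Col23a1, Col25a1 and Col26a1.

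**Figure D1:**
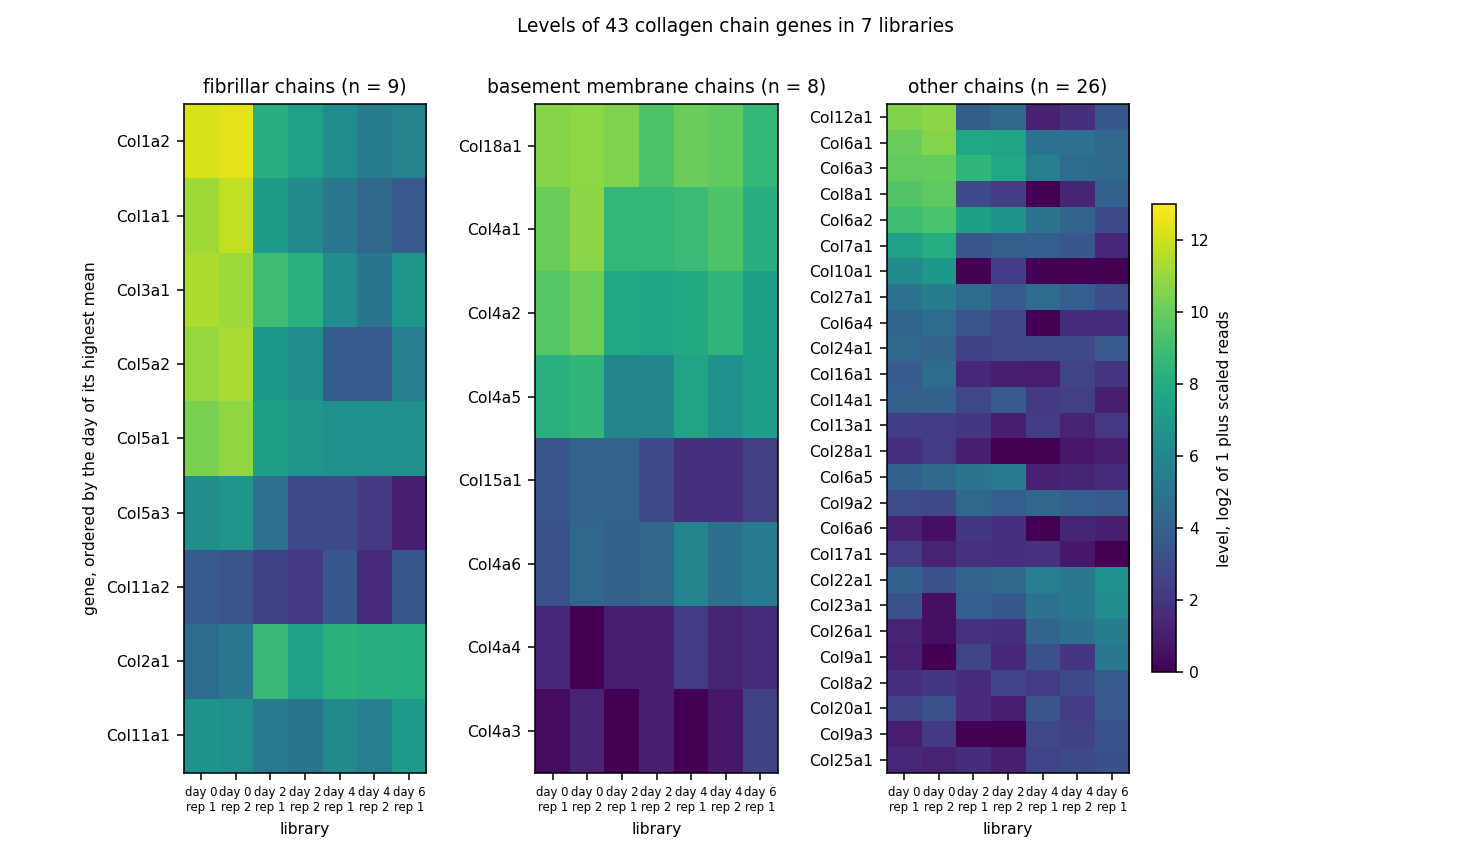
Level (colour, log2 of 1 plus scaled reads, from 0 to 13) of each of 43 collagen chain genes (rows, ordered by the day of their highest mean) in each of 7 libraries (columns), in panels for the fibrillar, basement membrane and other chains. Col1a2 reached 12.47 in a day 0 library, while Col18a1 lay between 8.66 and 10.77 throughout.

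To compare chains with each other, scaled reads were divided by the length of the longest coding transcript of each gene. On this scale Col1a2 led on day 0, with 897 and 1058 scaled reads per kb, followed by Col3a1 (481 and 396) and Col1a1 (386 and 608). Col18a1 led in each later library, with 260 and 119 (day 2), 192 and 162 (day 4) and 71.97 (day 6). Summed over all chains, the value was 3671 and 4537 (day 0), 827 and 507 (day 2), 520 and 488 (day 4) and 373 (day 6). Fibrillar chains made up 61.4% and 59.7% of that sum on day 0, 36.7% and 32.4% (day 2), 23.98% and 18.8% (day 4) and 32.5% (day 6). The share of basement membrane chains was 16.99% and 17.9% (day 0), 44.5% and 44.4% (day 2), 65.1% and 70.7% (day 4) and 46.1% (day 6). Their summed scaled reads per kb were lower in all later libraries than on day 0, at 624 and 810 (day 0), 368 and 225 (day 2), 338 and 345 (day 4) and 172 (day 6). The fibrillar sum was 2255 and 2709 at the start, then 303 and 164, 125 and 91.6, and 121. Library pairs of a day lay close together in both shares, and days 0, 2 and 4 did not overlap.

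The step off the feeders was read from day 2 against day 0. It was also the step out of serum and into suspension culture, and LIF is listed for day 0 only. The parts of these changes cannot be told apart. Of the 43 chains 19 fell and 1 rose (limma, adjusted p under 0.05), or 46.5%, where 12% of all genes tested were called (6.2% lower and 5.76% higher). By group, 7 of 9 fibrillar chains fell and 1 rose, 3 of 8 basement membrane chains fell and 9 of 26 other chains fell. The median change was -1.36 over all chains, -2.70 over the fibrillar, -0.53 over the basement membrane and -1.15 over the other chains, against 0.05 over all genes tested.

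The main fibrillar chains fell from the top of the range. Col1a2 (chromosome 6, 4504814 to 4541544, plus strand), a chain of type I collagen, the chief fibre of skin and bone, was at 12.23 and 12.47 (day 0), 8.15 and 7.42 (day 2), 6.34 and 5.47 (day 4) and 5.80 (day 6). Its fall on day 2 was -4.56 (SE 0.34, adjusted p = 0.0011). Col1a1, its partner in type I collagen (chromosome 11, 94936224 to 94953042, plus strand), was at 11.16 and 11.82, then 7.17 and 6.12, 5.22 and 4.36, and 3.65, with a fall of -4.85 on day 2 (SE 0.44, adjusted p = 0.0021). Day 0 and day 2 libraries did not overlap in either gene. Col5a2 and Col5a1 encode type V collagen, which starts fibres and sets their width. Col5a2 (chromosome 1, 45374321 to 45503282, minus strand) went from 10.94 and 11.33 to 6.92 and 6.36 (change -4.50, SE 0.25, adjusted p = 0.00059). Col5a1 went from 10.40 and 10.85 to 7.40 and 6.90 (change -3.47, SE 0.23, adjusted p = 0.00083), and Col5a3, another type V chain, went from 6.44 and 6.76 to 4.86 and 2.93 (adjusted p = 0.048). Col5a3 thus passed narrowly, with day 2 libraries far apart.

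Col3a1, the fibrillar chain of elastic tissues and vessels (chromosome 1, 45311538 to 45349706, plus strand), had a smaller change. It was at 11.39 and 11.10 (day 0), 8.99 and 8.25 (day 2), 6.37 and 5.06 (day 4) and 6.89 (day 6), with a change of -2.63 on day 2 (SE 0.44, adjusted p = 0.014). In scaled reads the day 2 mean of Col3a1 was 16.6% of its day 0 mean, against 4.33% for Col1a2, 3.59% for Col1a1 and 4.43% for Col5a2. Col3a1 and Col5a2 lie tail to tail on chromosome 1 with 24.6 kb between them.

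Upstream sequences are shown for Col3a1 and Col5a1, fibrillar chains that fell on day 2, and for Col11a1, a minor fibrillar chain described further with day 6. RefSeq windows (GRCm38.p6) matched 34 of 43 chains. Each line gives the 250 bases before the RefSeq start, and capitals mark the motif TATAAA, the motif CCAAT or the motif GGGCGG on either strand. Col3a1 is chr1:45311288-45311537, Col5a1 chr2:27886175-27886424 and Col11a1 chr3:114030290-114030539, all on the plus strand.
Col3a1: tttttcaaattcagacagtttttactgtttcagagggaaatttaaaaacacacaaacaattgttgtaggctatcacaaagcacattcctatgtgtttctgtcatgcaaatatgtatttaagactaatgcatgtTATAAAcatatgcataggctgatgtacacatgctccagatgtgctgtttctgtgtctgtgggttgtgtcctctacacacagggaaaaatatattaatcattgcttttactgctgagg
Col5a1: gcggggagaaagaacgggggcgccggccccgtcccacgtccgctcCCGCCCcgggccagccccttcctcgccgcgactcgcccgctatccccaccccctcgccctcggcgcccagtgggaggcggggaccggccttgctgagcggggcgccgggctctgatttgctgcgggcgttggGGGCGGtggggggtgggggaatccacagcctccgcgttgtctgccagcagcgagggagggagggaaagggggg
Col11a1: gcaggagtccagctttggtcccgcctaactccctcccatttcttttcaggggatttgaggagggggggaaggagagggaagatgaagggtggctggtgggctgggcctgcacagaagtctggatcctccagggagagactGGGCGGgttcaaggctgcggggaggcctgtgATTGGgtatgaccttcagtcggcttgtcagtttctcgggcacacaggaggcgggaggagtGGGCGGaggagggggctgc
Col3a1 holds a TATAAA that begins 117 bases before the start. Col5a1 holds GGGCGG 73 bases before it and, on the opposite strand, 205 bases before it, and Col11a1 holds GGGCGG 110 and 19 bases before it and CCAAT on the opposite strand at 79. Col3a1 and Col5a1 share none of these motifs. Over the 37 windows of 34 chains, GGGCGG was in 59.5%, CCAAT in 35.1% and TATAAA in 13.5%, against 32.7%, 33.8% and 12.4% of all 32851 windows of this length. A match is a run of letters and not a site.

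Type VI collagen, the beaded filament collagen around connective tissue cells, had smaller changes on this step than the type I chains. Col6a1 went from 10.05 and 10.56 to 7.79 and 7.57 (change -2.63, adjusted p = 0.0017). Col6a2 went from 8.94 and 9.30 to 7.36 and 6.75 (change -2.07, adjusted p = 0.015), and Col6a3 from 9.88 and 9.93 to 8.54 and 7.72 (change -1.77, adjusted p = 0.030). On day 2 the 3 genes were at 15.9%, 24.1% and 30.3% of their day 0 means in scaled reads. Col6a5, a further type VI chain, had 4.02 and 4.48 before and 5.01 and 5.30 after the step, with no overlap, and was not called (0.90, adjusted p = 0.228). The differences of type VI and type III chains from type I chains were not tested.

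The largest falls were in chains outside the fibrillar group. Col8a1, a network-forming chain of vessel walls and the cornea, went from 9.49 and 9.79 to 3.005 and 2.37 (change -6.95, SE 0.52, adjusted p = 0.0011). Col12a1 (chromosome 9, 79598991 to 79718831, minus strand), which decorates the surface of type I fibres, went from 10.51 and 10.73 to 3.83 and 4.49 (change -6.46, SE 0.36, adjusted p = 0.00059). Col10a1, best known from hypertrophic cartilage, was at 6.198 and 6.93 on day 0, was listed at 0 and at 2.25 on day 2 and was listed at 0 in all later libraries. Its exons overlap those of Nt5dc1 on the opposite strand, and the sources used here do not say whether reads were counted by strand. Col7a1, the anchoring fibril chain of skin, fell from 7.44 and 8.06 to 3.43 and 3.93 (change -4.06, adjusted p = 0.0022). Col16a1 and Col24a1 passed narrowly (adjusted p = 0.044 and 0.048). Col24a1, a fibrillar-type chain known from bone, went from 4.38 and 4.14 to 2.53 and 2.81. Col16a1, a fibre-associated chain, was at 3.74 and 4.58 on day 0, and its day 2 levels, 1.45 and 1.09, were under the level of 3 reads (2.12 and 2.25).

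Markers of feeder fibroblasts moved with these chains. All 12 markers fell on day 2 at a median of -4.23, and their summed scaled reads were 12403 and 14592 (day 0), 586 and 567 (day 2), 314 and 391 (day 4) and 459 (day 6). Their day 2 means were between 0.379% (Acta2) and 24.3% (Pdgfra) of day 0 with a median of 4.84%. This range holds the fallen chains of each group, the basement membrane chains Col4a2 (22.5%) and Col4a5 (17.8%) included, apart from Col4a1 (28.2%), Col24a1 (29.6%), Col6a3 (30.3%) and Col11a1 (38.5%). Those chains were chosen for having fallen, so their place in this range says nothing of their source. Twist2 was listed at 0 in a day 2 library and S100a4 and Twist2 in a day 4 library and on day 6. In bulk RNA fewer cells of a type and less RNA per cell cannot be told apart, and the part of feeder cells in the falls was not tested. With 1 library of days 0, 2 or 4 left out, that day holds 1 library, and few or none of the 20 changes stayed past the threshold. Every called change kept its direction in those fits. The calls over all 21813 genes dropped there as well. Without trend and robust moderation the falls of Col3a1, Col4a1, Col5a3, Col6a2, Col6a3, Col11a1 and Col16a1 no longer passed (adjusted p = 0.054 to 0.112). The fall of Col24a1 passed in 5 of 7 alternatives (limma, highest adjusted p = 0.080), and its change of -1.59 was as small as -0.68 among them.

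Basement membrane chains fell on day 2 in 3 of 8 cases, Col4a1, Col4a2 and Col4a5. Col4a1 (chromosome 8, 11198423 to 11312826, minus strand) and Col4a2 (chromosome 8, 11312805 to 11449287, plus strand) encode the chains of the common type IV network. Col4a1 was at 10.10 and 10.75 (day 0), 8.61 and 8.67 (day 2), 8.86 and 9.44 (day 4) and 8.20 (day 6), with a change of -1.79 on day 2 (SE 0.26, adjusted p = 0.0093). Col4a2 was at 9.58 and 10.12, 7.79 and 7.66, 7.90 and 8.57, and 7.33 (change -2.13 on day 2, SE 0.27, adjusted p = 0.0055). The day 2 and 4 libraries of both genes lay below those of day 0 without overlap.

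These genes stand head to head, and RefSeq places the start of Col4a1 at 11312826 on the minus strand and that of Col4a2 at 11312805 on the plus strand, so the first 22 bases of each are shared. The stretch is shown because both chains kept a similar ratio over the course, and its capitals mark the 22 shared bases (GRCm38.p6, chr8:11312801-11312830, plus strand, 5′ to 3′).
Col4a1 and Col4a2: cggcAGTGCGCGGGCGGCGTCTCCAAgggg
Within a library Col4a1 was above Col4a2 by 0.52 and 0.63 (day 0), 0.82 and 1.01 (day 2), 0.96 and 0.88 (day 4) and 0.87 (day 6). That difference thus stayed within a range of 0.49, while Col4a1 itself ranged over 2.55 and Col4a2 over 2.79. Both day 0 libraries lay below all later ones in this difference, a shift that was not tested. Such differences contain the lengths of both transcripts, so only how they vary between libraries can be read. A difference that varied far less than its genes was not limited to this head-to-head pair. Col1a1 minus Col1a2, from different chromosomes, ranged over 1.49, while Col1a1 itself ranged over 8.16. Col6a1 minus Col6a2, from the same strand of chromosome 10, ranged over 1.49, while these genes ranged over 6.16 and 6.32. Whether the shared start has a part in the ratio of Col4a1 to Col4a2 was not tested.

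Col4a5 and Col4a6, also head to head but on the X chromosome with 1342 bases between their RefSeq starts, did not keep such a ratio. Both encode chains of a second type IV network, known from kidney and smooth muscle. Col4a5 was at 8.28 and 8.57 (day 0), 5.95 and 5.97 (day 2), 7.59 and 6.57 (day 4) and 7.26 (day 6), with a change of -2.47 on day 2 (SE 0.33, adjusted p = 0.0069). Col4a6 was at 3.20 and 4.40, 3.97 and 4.31, 5.84 and 4.82, and 5.31, and was called in none of the 4 comparisons. Col4a5 exceeded Col4a6 by 5.08 and 4.18 on day 0 and by 1.66 to 1.98 in the 5 later libraries. This difference was not tested.

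Col18a1, the source of the endostatin fragment (chromosome 10, 77052178 to 77166548, minus strand), was at 10.66 and 10.77 (day 0), 10.51 and 9.38 (day 2), 10.07 and 9.83 (day 4) and 8.66 (day 6). It was not called on day 2 (-0.77, adjusted p = 0.202) or on day 6 against day 4 (-1.29, adjusted p = 0.114). Col15a1, its relative, was at 3.50 and 4.15 (day 0), 4.15 and 2.96 (day 2), 1.80 and 1.81 (day 4) and 2.45 (day 6), with day 4 libraries at or under the level of 3 reads. Col4a3 and Col4a4, the chains of the glomerular network, never passed 2.58 and 2.30.

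**Figure D2:**
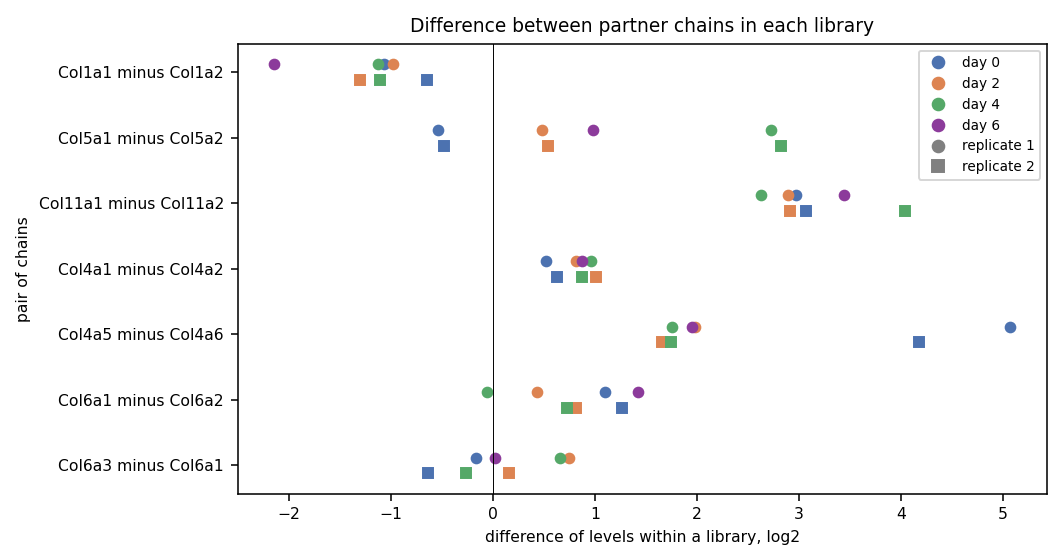
Difference of the log2 levels of partner chains (horizontal axis) within each of 7 libraries (points, coloured by day, circle or square by replicate) for 7 pairs. Col4a1 minus Col4a2 stayed between 0.52 and 1.01, whereas Col4a5 minus Col4a6 was 5.08 and 4.18 on day 0 and 1.66 to 1.98 later, and Col5a1 minus Col5a2 ran from -0.54 to 2.83. Col1a1 minus Col1a2 ran from -2.14 to -0.65 and Col6a1 minus Col6a2 from -0.06 to 1.43.

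Laminins, nidogens and perlecan, the other parts of the basement membrane, were read beside these chains. On day 2, 7 of 11 fell, with a median of -1.50, led by Nid1 (-3.09), Lama2 (-2.87) and Lama4 (-2.75). Of all genes 6.2% fell in that step. On day 4 only Nid1 was called (-1.37), where 3.59% of all genes were. On day 6 against day 4, 5 of 11 fell, with a median of -0.94, among them Lama5 (-3.02), Hspg2, the perlecan core (-2.90), and Nid2 (-1.45). In the same step 0 of 8 collagen chains of the basement membrane were called by limma, where 4.46% of all genes were, and 4 had an unadjusted p under 0.05. The difference between chains and partners was not tested. Markers of parietal and visceral endoderm, a tissue rich in type IV collagen, summed to 728 and 1149 scaled reads on day 0, 224 and 406 (day 2), 236 and 347 (day 4) and 415 (day 6). Of those 9 markers 2 fell on day 2, Plat and Thbd, against 6.2% of all genes, and their part in the basement membrane values was not tested. Endothelial markers, which could also accompany type IV collagen, summed to between 92.1 and 306 in all libraries. The highest sum was on day 2, where Pecam1 had a mean level of 7.70 and the next marker, Tek, 4.97. Cdh5, Emcn, Tie1 and Vwf had means at or under 2.36 there, so that sum is largely Pecam1.

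Col2a1, the fibrillar chain of cartilage and of the notochord sheath, was the chain that rose on day 2 (chromosome 15, 97975602 to 98004695, minus strand). It was at 4.59 and 5.14 (day 0), 8.79 and 7.45 (day 2), 8.36 and 8.13 (day 4) and 8.04 (day 6). The rise was 3.26 or 9.55-fold (SE 0.43, adjusted p = 0.0065), and every later library was above both of day 0. From day 2 to day 4 its change was 0.13 (adjusted p = 0.956), and -0.54 without day 2 replicate 2. Without day 0 replicate 1 or 2 and day 2 replicate 1 or 2 in turn its day 2 rise was between 2.59 and 3.92 with adjusted p of 0.0606 to 0.191.

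Sox9, the transcription factor known to switch on Col2a1 in cartilage, was at 4.56 and 4.81 (day 0), 3.76 and 3.43 (day 2), 6.35 and 5.50 (day 4) and 6.89 (day 6). It was not called on day 2 (-1.09, adjusted p = 0.111) and rose on day 4 (2.33, adjusted p = 0.028). Of the 14 cartilage genes 2 fell on day 2, Prg4 and Runx2, where 6.2% of all genes fell. On day 4, 1 rose, Sox9, where 1.45% of all genes rose. On day 6, 3 were higher than on day 2, Sox9 (3.29), Sox5 (3.56) and Lect1, against 7.47% of all genes. Lect1 was listed at 0 on day 2 and was at 4.02 on day 6. Whether these small counts exceed those shares was not tested. Acan, the cartilage proteoglycan, was at or under 3.44 in all libraries and Comp at or under 1.45. Sox1 (4.67), Fabp7 (5.04), Zic1 (2.81) and Pax6 (1.22), 4 of the 8 neural markers, rose on day 2 as well, where 5.76% of all genes rose. The part of neural cells in the Col2a1 rise was not tested. Markers of paraxial mesoderm and sclerotome, the embryonic source of cartilage, summed to 71.5 and 87.5 (day 0), 34.8 and 35.4 (day 2), 35.9 and 38.7 (day 4) and 106 (day 6), with Foxc2 lower on day 2 among the 6 tested.

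The step with Noggin, Wnt3a and Activin A was read from day 4 against day 2. Of the 43 chains 8 fell and 1 rose, or 20.9%, where 3.59% of all genes were called (2.13% lower and 1.45% higher). Of the fibrillar chains 3 of 9 fell, of the other chains 5 of 26 fell and 1 rose, and of the basement membrane chains 0 of 8 were called by limma, with 2 at an unadjusted p under 0.05. The median change was 0.01 over all chains, as against 0 over all genes tested. With any 1 library of days 0, 2 or 4 left out no chain was called by limma, and 13 to 17 chains had an unadjusted p under 0.05. Of all 21813 genes 0 were then called as well, except for 554 without day 4 replicate 2, so these fits say little of the chains. Without trend and robust moderation Col1a2, Col3a1, Col6a2, Col6a3, Col12a1 and Col26a1 no longer passed (adjusted p = 0.056 to 0.1203).

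Col6a1, Col6a2 and Col6a3 fell again. Col6a1 was at 4.92 and 4.88 on day 4 (change -2.78, SE 0.22, adjusted p = 0.0082), Col6a2 at 4.98 and 4.15 (change -2.49, adjusted p = 0.022) and Col6a3 at 5.58 and 4.62 (change -3.03, adjusted p = 0.015). All of these lay below the day 2 libraries. Col6a5, from 5.01 and 5.30, was at 1.20 and 1.34 on day 4, under the level of 3 reads (2.30 and 1.81), with a fall of -3.88 (SE 0.42, adjusted p = 0.011). Col3a1 fell by 2.90 (SE 0.44, adjusted p = 0.025), Col5a2 fell by 2.90 to 3.78 and 3.69 (SE 0.25, adjusted p = 0.0082) and Col1a2 fell by 1.88 (adjusted p = 0.041). Col1a1 had a like change that did not pass (-1.86, adjusted p = 0.076). Col12a1 fell by 2.67 to 1.20 and 1.80, under the level of 3 reads (adjusted p = 0.018). Col5a1 was at 6.51 and 6.52 and was not called (-0.64, adjusted p = 0.173). The gap of Col5a1 over Col5a2 was -0.54 and -0.48 (day 0), 0.48 and 0.54 (day 2), 2.73 and 2.83 (day 4) and 0.98 (day 6), so these type V partners did not keep a fixed ratio. The exons of Col5a1 overlap those of the opposite-strand genes 2810430I11Rik and Gm13372. Feeder markers fell in the same step in 3 of 12 cases (Cav1, Fbn1 and Prrx1), with a median of -0.63, where 2.13% of all genes fell.

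Col26a1, a chain first described from testis and ovary (chromosome 5, 136741759 to 136883209, minus strand), was the chain that rose on day 4. It was at 1.28 and 0.51 (day 0), 1.88 and 1.79 (day 2), 4.24 and 4.82 (day 4) and 5.47 (day 6). Its change on day 4 was 2.70 (SE 0.50, adjusted p = 0.042), from day 2 values under the level of 3 reads. The change was 1.05 with pseudocount 16 (adjusted p = 0.041), and its adjusted p was 0.059 without trend and robust moderation. All later libraries lay above those of days 0 and 2. Of the 6 notochord markers 4 rose in the same step, where 1.45% of all genes rose. Their summed scaled reads were 93.5 and 26.1 (day 0), 28.99 and 68.0 (day 2), 934 and 687 (day 4) and 708 (day 6). Of the 8 neural markers 4 rose, and their sums were 563 and 501, 896 and 731, 2647 and 2114, and 3719. The part of either cell type in the rise was not tested.

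**Figure D3:**
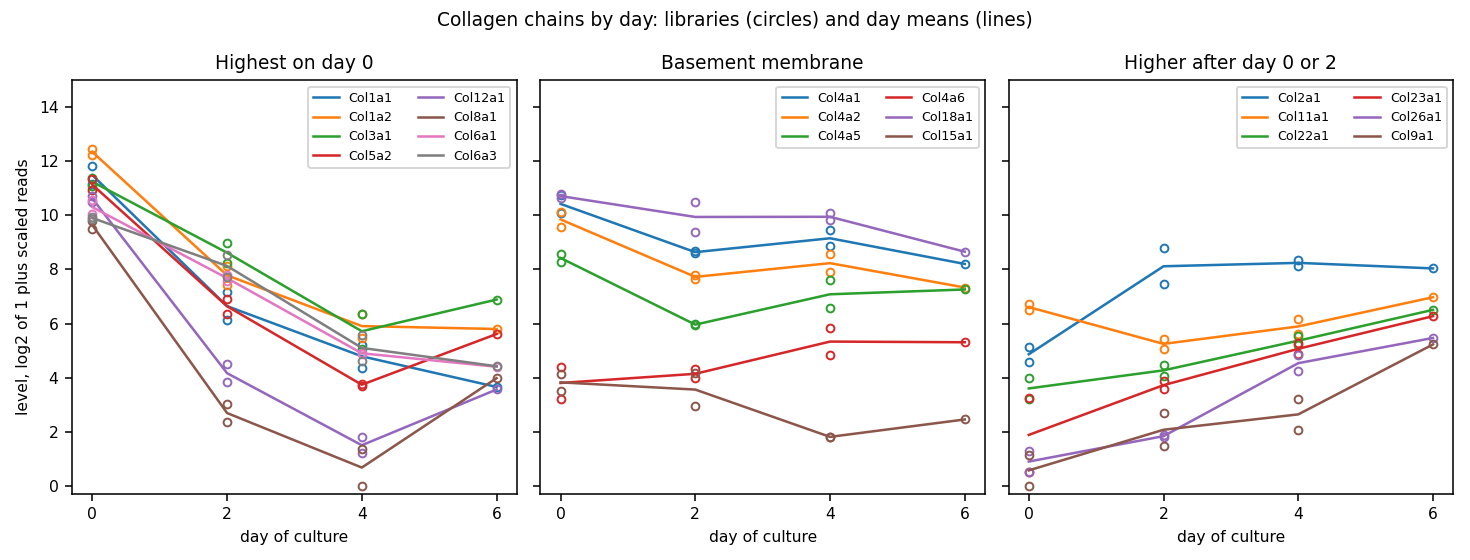
Level (log2 of 1 plus scaled reads) against day of culture for 20 collagen chains in 3 panels, where open circles are libraries and lines join the day means. Chains highest on day 0 drop by day 2 to different depths (Col12a1 to 3.83 and 4.49, Col3a1 to 8.99 and 8.25), Col4a1 and Col4a2 run in parallel, and Col26a1 climbs from 1.28 and 0.51 to 5.47.

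On day 6 against day 4, 2 chains rose and 1 fell of 43, or 6.98%, near the 4.46% of all genes called (1.27% higher and 3.18% lower), and day 6 is 1 library that is assumed to vary like the others. Col5a2 rose from 3.78 and 3.69 to 5.61 (1.88, SE 0.31, adjusted p = 0.032). Col8a1, listed at 0 and at 1.34 on day 4, was at 3.98 on day 6 (adjusted p = 0.045), a change that starts under the level of 3 reads. Col7a1 fell from 3.89 and 3.53 to 1.42 (adjusted p = 0.048), itself under the level of 3 reads (2.14). Col12a1, at 3.56 on day 6, missed the threshold (2.06, adjusted p = 0.052). Prrx1, a mesenchyme factor, was the feeder marker that rose in this step (2.57), from 4.12 and 3.03 to 6.15. With any 1 library of days 0, 2 or 4 left out no chain was called by limma, and 5 to 11 chains had an unadjusted p under 0.05. Of all genes, 0 were called in the fits without a day 2 library or without day 4 replicate 1, and 718 to 817 in the other 3. None of the 3 chain calls passed without trend and robust moderation (adjusted p = 0.076 for Col5a2, 0.090 for Col8a1 and 0.077 for Col7a1). With pseudocount 16 the changes were 1.17 for Col5a2, 0.88 for Col8a1 and -0.67 for Col7a1, none past the threshold.

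Both late steps together were read from day 6 against day 2, which shares its libraries with the step comparisons. Of the 43 chains 4 were higher and 7 lower, or 25.6%, against 15.9% of all genes (7.47% higher and 8.41% lower). Col26a1 was higher by 3.63 (SE 0.61, adjusted p = 0.013). Col22a1, a fibre-associated chain of tissue junctions, was at 3.98 and 3.22 (day 0), 4.07 and 4.47 (day 2), 5.54 and 5.19 (day 4) and 6.51 (day 6), higher by 2.24 (adjusted p = 0.024). Col11a1, a minor chain of cartilage fibres, fell on day 2 from 6.71 and 6.51 to 5.43 and 5.06 (-1.36, adjusted p = 0.025), was at 6.16 and 5.63 (day 4) and at 6.97 (day 6), and was higher on day 6 than on day 2 by 1.73 (adjusted p = 0.020). The day 6 level of Col11a1 was above both day 0 libraries. Col9a3 was at 1.03 and 2.16 on day 0, was listed at 0 in both day 2 libraries, was at 2.76 and 2.52 on day 4 and at 3.25 on day 6. Its call as higher on day 6 than on day 2 (adjusted p = 0.028) rests on listed zeros, which may be failed estimates. The change was as low as 0.62 among 5 alternatives, and the call held in them, but all 5 keep the listed zeros. With exact 0 as missing Col9a3 has no day 2 value, so the part of the zeros in this call could not be tested. Exons of Col9a3 overlap those of Tcfl5 on the opposite strand.

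Col9a1, a chain of the type IX collagen that coats the fibres of cartilage and the vitreous, and the membrane-spanning chain Col23a1 were not called. Col9a1 was at 1.13 and 0 (day 0), 2.69 and 1.45 (day 2), 3.21 and 2.07 (day 4) and 5.23 on day 6 (3.16 against day 2, adjusted p = 0.059). Col23a1 was at 3.25 and 0.51, 3.88 and 3.56, 4.86 and 5.27, and 6.27 (2.55, adjusted p = 0.146), with day 0 replicates far apart. Col9a2, another type IX chain, was between 2.85 and 4.39 throughout (-0.38, adjusted p = 0.672). The lower chains were Col6a1 (-3.28), Col6a2 (-4.08), Col6a3 (-3.71), Col6a5 (-3.44), Col1a1 (-2.99), Col1a2 (-1.99) and Col7a1 (-2.26). Without day 2 replicate 1 no chain was called by limma (18 at an unadjusted p under 0.05), and 5 were without day 2 replicate 2. The count was 3 without any other 1 library of days 0 and 4. Over all genes the calls were 0 without day 2 replicate 1, 1279 without day 2 replicate 2 and 1372 to 1853 in the other fits. Col1a1 and Col1a2 did not pass without trend and robust moderation (adjusted p = 0.062 and 0.084). Col7a1 passed in 4 of 7 alternatives, and did not with pseudocount 16 (-0.66, adjusted p = 0.193). Col22a1 passed in 6 of 7 alternatives (limma, highest adjusted p = 0.052).

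**Figure D4:**
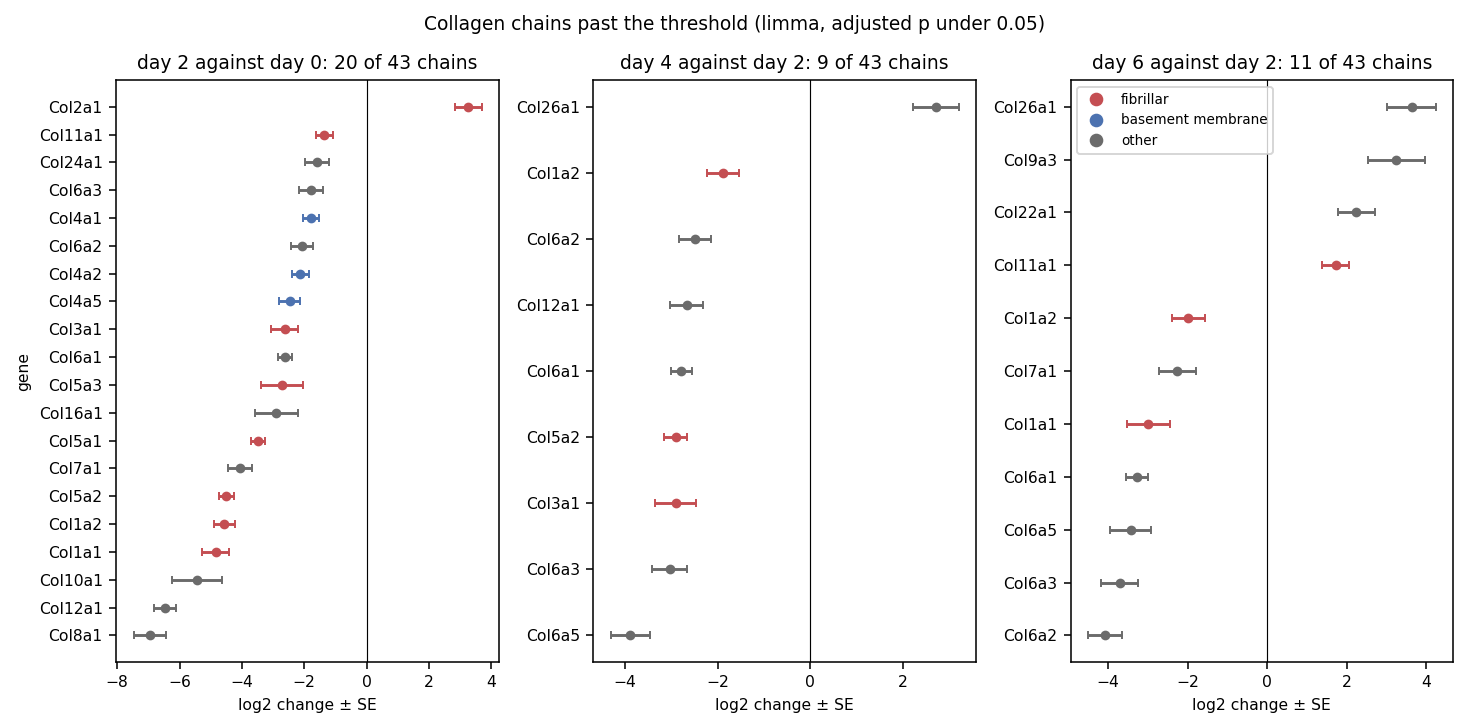
Log2 change (horizontal axis, point) with its SE (bar) of each collagen chain past the threshold in 3 comparisons, coloured by group. On day 2 against day 0, 19 chains lie left of 0 and Col2a1 right of it, and on day 6 against day 2, Col26a1, Col9a3, Col22a1 and Col11a1 lie right of 0.

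Of the 43 chains 35 had a day mean of at least 10 scaled reads and the other 8 did not. Those 8 were Col4a3, Col4a4, Col6a6, Col9a3, Col13a1, Col17a1, Col25a1 and Col28a1, which lay at or below 3.25 in all libraries. Col8a2 was between 1.70 and 3.75, Col11a2 between 1.58 and 3.74, Col14a1 between 1.10 and 3.98, Col20a1 between 1.09 and 3.63, Col27a1 between 3.06 and 5.48 and Col6a4 between 0 and 4.52. None of these 6 was called by limma in any comparison. The chains of lowest peak inside the selection were Col6a6 (2.12) and Col17a1 (2.28), and the row outside it, Col19a1, was listed at 0 throughout.

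Enzymes that fold and modify collagen moved with the chains on day 2. Of 22, 11 fell and 1 rose, with a median of -1.09, where 6.2% of all genes tested fell and 5.76% rose. P4ha3, a prolyl hydroxylase subunit, fell by 3.35, and Fkbp10, a collagen chaperone, fell by 2.86. P3h2, a prolyl hydroxylase of type IV collagen, rose by 1.94. Serpinh1, the collagen chaperone Hsp47, fell by 1.43 and had levels of 9.76, 9.62 and 9.55 in the 3 libraries of days 4 and 6. On day 4 against day 2, 0 of the 22 were called by limma (7 at an unadjusted p under 0.05), where 3.59% of all genes were. On day 6 against day 4, 1 was, Colgalt2 (4.48 on day 6, against a listed 0 in either day 4 library), where 4.46% of all genes were. Fkbp14 (2.33) and P4ha1 (1.73), a prolyl hydroxylase subunit, were higher on day 6 than on day 2, beside Colgalt2, while Creb3l1 (-2.26) and Crtap (-1.76) were lower. These are 3 higher and 2 lower of the 22, against 7.47% and 8.41% of all genes.

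Of the 14 enzymes of procollagen cleavage and cross-linking 8 fell and 1 rose on day 2, with a median of -3.34. Of all genes 6.2% fell and 5.76% rose in that step. Lox, the founding cross-linking oxidase, went from 10.58 and 10.68 to 2.73 and 3.38 (-7.58, adjusted p = 0.0005). Loxl1 fell by 3.98 and Loxl3 fell by 3.85, while Adamts3, a procollagen protease, rose by 1.88. Loxl2, an oxidase that cross-links type IV collagen, turned. It fell on day 2 from 10.55 and 10.66 to 7.03 and 7.001 (-3.59), then rose to 7.96 and 8.42 on day 4 (1.18, adjusted p = 0.025) and to 9.58 on day 6 (1.39, adjusted p = 0.028). Pxdn, the peroxidasin that also cross-links type IV collagen, was between 8.84 and 10.01 in all libraries and was not called.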

How the data were processed

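RNA-seq of polyadenylated RNA gave 7 libraries, grouped by day from their titles. The authors deposited a table with 30590 rows whose 7 value columns were matched to the libraries by name (0 unmapped). 1 column name has a letter O where the label has a zero and was read as day 0 replicate 2. The values deposited by the authors are on a natural log scale, of 1 plus scaled reads, a unit inferred from the values, and the 9896 highest values, sorted, differ by less than 0.01 between columns, as after quantile normalization. The build is GRCm38, per the submitters' processing notes, while aligner, counter and strand setting are not stated in those sources.

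Values were divided by the natural log of 2. Foreign sequences (103 rows) and genes at 0 throughout (8674) were left out, leaving 21813 genes, all 43 chains among them. Days were compared with limma-trend with robust moderation (limma 3.58.1, R 4.3.3), all libraries in 1 fit, Benjamini-Hochberg adjustment over all genes and a threshold of 0.05, after a test on simulated data. Changes of low genes are understated. Chains with a day mean of at least 10 scaled reads were described singly. From fixed lists of pathway and marker genes, counts are given, with up to 3 called genes of each list per comparison and values of markers. Acan, Comp, Serpinh1, Pxdn, P3h2, Adamts3, and Loxl2, Sox9 and Dcn on day 2, fall outside that rule and were named after their values were seen. P4ha1 and Crtap on day 6 against day 2 fall outside it as well. Members, lists and tests were chosen with earlier results of these data known. Gene positions and transcript lengths are from GENCODE M21 on GRCm38 (43 of 43 matched) and start sites and sequences from RefSeq. In 13 of 43 chains exons overlap another gene. Alternatives were a mean-level filter, median centring, pseudocounts 4 and 16, no trend or robust moderation, exact 0 as missing, no day 6, a replicate block and each library left out.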

Additional observations from a re-analysis of the deposited data

How the results depend on the processing

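Without trend and robust moderation the called chains numbered 13 on day 2 against day 0 (20 reported), 3 on day 4 against day 2 (9 reported) and 0 on day 6 against day 4 (3 reported), where 11 had an unadjusted p under 0.05. The day 6 against day 4 count was 5 with the mean-level filter, 5 with exact 0 as missing and 1 with pseudocount 16, and day 6 against day 2 gave 19 with exact 0 as missing (11 reported). The cause was not tested. All other such counts lay within 1.5 times of those reported. With 1 library left out, which leaves 2 residual degrees of freedom, the counts ran from 0 to 3 on day 2 against day 0, were 0 throughout for day 4 against day 2 and for day 6 against day 4, and ran from 0 to 5 on day 6 against day 2. Of the 43 chain changes called, none changed sign in 321 alternative values, and 34 of those were no longer past the threshold. Of their 258 values with 1 library left out, 24 stayed past it and 234 did not, again with no change of sign. Col2a1 on day 4 against day 2, which was not called, was 0.13, and with 1 library left out it ran from -0.54 (without day 2 replicate 2) to 0.79 (without day 2 replicate 1).

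Replicate numbers, and the endings of the column names, are shared between days. Deviations of same-numbered libraries correlated at -0.06 (days 0 and 2), -0.07 (days 0 and 4) and 0.22 (days 2 and 4). With 2 libraries per day these values cannot settle whether same-numbered libraries are paired, and the main fit leaves them unpaired. With a replicate block the counts were 19, 8, 1 and 10 in the 4 comparisons, of which only that of day 6 against day 4 moved by over 1.5 times. Differences under the level of 3 reads, 1.45 to 2.30, cannot be read.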

Other observations

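Of 12 proteins that bind collagen fibres 8 fell on day 2, at a median of -3.08, where 6.2% of all genes fell. Bgn, the proteoglycan biglycan, fell from 12.04 and 12.70 to 6.22 and 6.54 (-5.99), Thbs1, a thrombospondin, fell by 5.93, and Ogn, another small proteoglycan, fell by 4.81. Dcn, the proteoglycan decorin, went from 7.74 and 6.95 to 7.12 and 6.997 over that step and was not called (-0.29, adjusted p = 0.701). By day 4 Dcn had gone to 3.98 and 3.08 (-3.53, adjusted p = 0.012), and it was 1 of 5 that fell in that step. Of all genes 2.13% fell there.

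Of 10 collagen receptors 4 fell on day 2, where 6.2% of all genes fell. Among them were Itga11, an integrin subunit for fibrillar collagen that went from 6.05 and 6.10 to being listed at 0 in both libraries, and Ddr2, a receptor kinase for fibrillar collagen (-3.55). On day 4 against day 2, 2 of the 10 rose and 1 fell, with a median of -0.12, where 1.45% of all genes rose and 2.13% fell. Ddr2 fell again from 5.68 and 6.27 to 2.70 and 2.19 (-3.53, adjusted p = 0.0084). Ddr1, its relative that also binds type IV collagen, rose from 7.02 and 6.63 to 8.84 and 8.12 (1.65, adjusted p = 0.031). Adgrg1, an adhesion receptor for type III collagen, rose from 5.42 and 4.63 to 8.80 and 7.63 (3.19, adjusted p = 0.023). Among collagen-degrading enzymes and their inhibitors 6 of 9 fell on day 2, where 6.2% of all genes fell. Timp3 was the member that rose on day 6 against day 4 (2.07), where 1.27% of all genes rose.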
